A study of Mus musculus with 16 samples.

Results

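MiRNA abundance was described in resting dorsal skin of wild-type mice. The members were the 4 arrays whose titles mark them as WT skin with no UV, out of 16 arrays in the whole series, and they were chosen by title alone. No other group enters any value given here. The mice were Ppard+/+ littermates of Ppard−/− animals, that is, they carried both working copies of Ppard, which encodes the nuclear receptor PPARβ/δ. They were hairless females of the mixed SKH1-C57/Bl6-SV129 background, were not exposed to UVB, and were handled alongside mice under a chronic UVB protocol. Per the methods, the animals were aged 8 to 12 weeks, with 4 per group, and controls were matched for age; whether that age is at the start or at sampling is not stated. The labels do not tie a sample number to an animal, so the spread between the 4 samples may hold technical as well as animal-to-animal differences. Whole skin was used, so epidermis, hair follicles, dermis, vessels and the muscle sheet under mouse skin all contribute RNA.

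MiRNAs are short RNAs that guide Argonaute proteins to messenger RNAs, which they repress. A hairpin precursor is cut into a duplex, of which the guide strand is kept more often than the passenger strand, marked with a star in the array's names. Bases 2 to 8 of the mature strand, the seed, do most of the pairing with the target, so miRNAs with the same seed are treated as a family. In skin, miR-203 is known for restraining the proliferative potential of epidermal progenitors, miR-205 as a miRNA of basal keratinocytes, and miR-21 as a miRNA that is raised in many tumours.

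Each array measured 567 mouse miRNAs, nearly all with 20 spots each. The total gene signal is the background-subtracted brightness summed over these spots, in arbitrary intensity units. Summed over all mouse miRNAs, with values under 0 set to 0, it was 220195 on array 1, 266631 on array 2, 171659 on array 3 and 220437 on array 4. A miRNA's share is its signal as a percentage of that sum on the same array. A share is a share of signal and not of molecules, because different probes bind and fluoresce differently. All values below are descriptions of these 4 arrays.

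The pool was dominated by a small number of miRNAs. MiR-21 alone held 9.09% ± 2.28 (SD, n = 4) of the signal. The 10 miRNAs with the largest mean share held 43.98% ± 0.640 together, and the 20 largest held 65.6% ± 1.29. On every array 12 to 13 miRNAs made up 50% of the signal, 58 to 61 made up 90%, and 149 to 160 made up 99%. The total thus rested on few species, and the number needed for 50% differed by 1 between arrays. Shares are taken within an array, so total brightness does not enter that number.

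The mature strands of the miRNAs that lead the pool are printed here from RefSeq (GRCm38.p6) so that their seeds, in capitals, can be compared; the remaining bases are in lower case. Shown are 13 of the 20 brightest miRNAs, in order of mean share.
miR-21: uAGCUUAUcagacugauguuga
miR-23a: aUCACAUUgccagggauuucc
miR-203: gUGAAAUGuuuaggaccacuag
let-7c: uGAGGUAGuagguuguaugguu
let-7a: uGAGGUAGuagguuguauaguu
miR-205: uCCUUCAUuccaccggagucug
let-7f: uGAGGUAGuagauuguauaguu
miR-29a: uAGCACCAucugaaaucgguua
miR-24: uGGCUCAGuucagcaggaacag
let-7b: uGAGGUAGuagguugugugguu
miR-27a: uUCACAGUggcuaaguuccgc
miR-26a: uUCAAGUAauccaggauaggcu
miR-16: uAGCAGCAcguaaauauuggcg

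**Figure D1:**
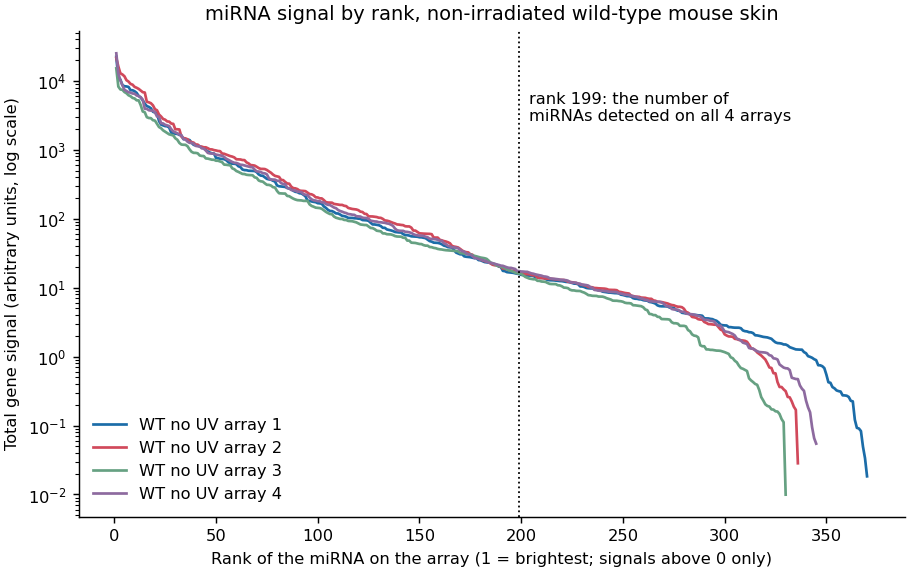
Total gene signal (vertical axis, arbitrary units, log scale) against the rank of the miRNA on its array (horizontal axis) for the 4 WT no UV arrays, 1 line per array. The 4 lines fall steeply over the first ranks and lie close together, and the dotted line marks rank 199, the number of miRNAs detected on all 4 arrays.

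MiR-21, the guide strand named miR-21-5p elsewhere, read 22294 units on array 1, 16132 on array 2, 15170 on array 3 and 25057 on array 4. Its shares were 10.1%, 6.05%, 8.84% and 11.4% in the same order. It was the brightest miRNA on arrays 1, 3 and 4, and came second to miR-1 on array 2. The array lists it on chromosome 11, 86397622 to 86397641 (mm9, minus strand).

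MiR-1, which is known from skeletal and heart muscle, read 10406, 21488, 7409 and 12731 units on arrays 1 to 4. Array 2 was therefore about 2.11 times the mean of the other 3, and the miR-1 share was 4.73%, 8.06%, 4.32% and 5.78%. Its rank ran from 1 to 4.

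MiR-23a had the third largest mean share, 4.79% ± 0.110, and stayed between 4.64% and 4.90% on all 4 arrays. MiR-203 followed at 4.06% ± 0.403, with signals of 8156, 12365, 6874 and 8616 units, and miR-205 was seventh at 3.49% ± 0.272, with 7316, 10204, 6174 and 7112 units. Both keratinocyte miRNAs were highest on array 2 and lowest on array 3, as was the total signal.

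Let-7a, one of the let-7 miRNAs that accumulate in differentiated tissue, ranked sixth. It read 8345, 9016, 6605 and 6834 units, or 3.53% ± 0.354 of the signal. Let-7c was slightly above it at 3.83% ± 0.427, and let-7f slightly below at 3.17% ± 0.259.

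The ranks behind these lay close together. MiR-29a (3.16% ± 0.409), miR-24 (3.14% ± 0.0904), let-7b (2.96% ± 0.388), miR-133b (2.94% ± 0.985) and miR-27a (2.92% ± 0.130) occupied places 9 to 13, and the difference between the first and the last of them was smaller than the SD of miR-29a. MiR-26a at 2.48% ± 0.106 stood below all of these in mean share. Places 15 to 20 went to miR-22, miR-23b, miR-125b-5p, miR-133a, let-7i and miR-16, with mean shares from 1.83% down to 1.49%.

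Most neighbours in this order could not be separated by the 4 arrays. Of the 19 neighbouring pairs among the 20 brightest, 5 had the same order on all 4 arrays. These were miR-23a above miR-203, let-7c above let-7a, miR-205 above let-7f, miR-27a above miR-26a, and miR-26a above miR-22. MiR-21 was above miR-1 on 3 of 4 arrays, miR-1 above miR-23a on 2 of 4, and let-7a above miR-205 on 2 of 4. Membership of the top was steadier than order within it. The top 10 of all 4 arrays shared 8 miRNAs and the top 20 shared 17, while 23 different miRNAs appeared in the top 20 of at least 1 array.

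**Figure D2:**
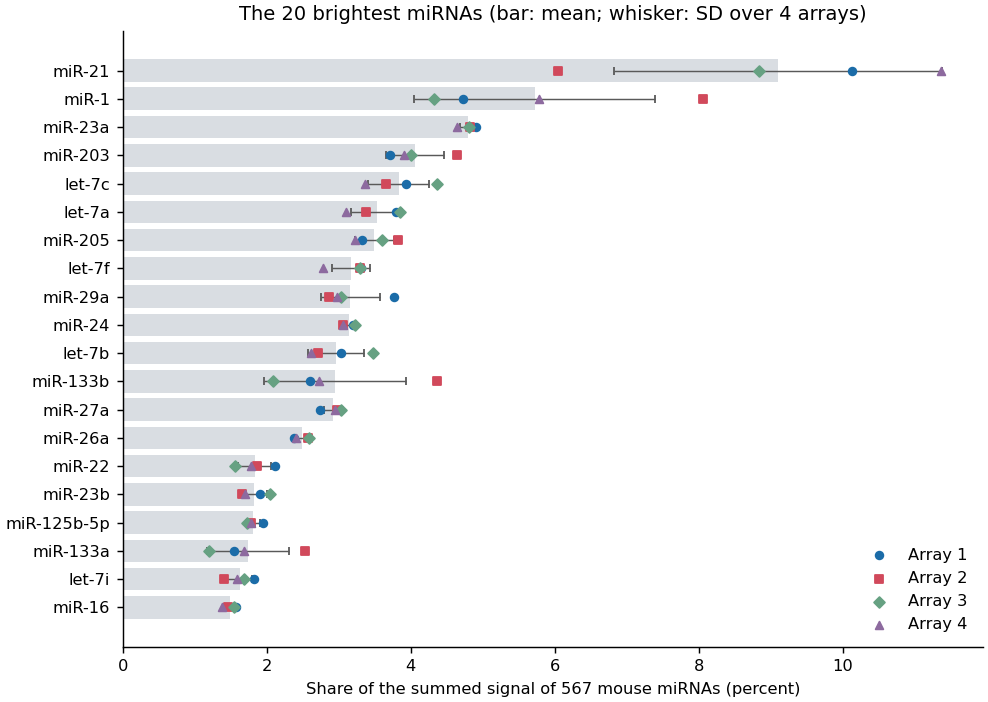
Share of the summed miRNA signal (horizontal axis, percent) of the 20 brightest miRNAs (vertical axis), with the mean over 4 arrays as a bar, the SD as a whisker and each array as a point. Array 2 lies lowest for miR-21 at 6.05% and highest for miR-1, miR-133b and miR-133a, whereas the points of miR-23a fall between 4.64% and 4.90%.

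Grouped by seed, the 567 miRNAs formed 473 families, of which 146 had a member detected on all 4 arrays. The 12 largest families held 70.8% ± 1.28 of the signal, and the 7 largest were enough for 50% of the mean. MiRNAs with no RefSeq sequence were placed with a family by name where their family is established, and otherwise counted alone.

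The let-7 family was the largest. Its 9 members on the array, with miR-98 counted among them, share the seed GAGGUAG, and all 9 were detected on all 4 arrays. Together they held 18.6%, 17.0%, 19.2% and 15.8% of the signal on arrays 1 to 4, a mean of 17.6% ± 1.56, which exceeded miR-21 on every array. No single member led the family, since let-7c made up 21.7% of it. The RefSeq sequences of let-7a and let-7c differ at 1 of 22 bases, as do those of let-7a and let-7f and those of let-7c and let-7b. Hybridisation of 1 member to another's probe was not measured here. It would blur the split within the family, and it could count the same RNA more than once in the sum.

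MiR-21 formed a family of its own and was second. The miR-23 family (seed UCACAUU) was next at 6.61% ± 0.248, of which miR-23a made up 72.4%. The family of miR-1 and miR-206 held 5.96% ± 1.67, with 96.0% of it from miR-1, and the miR-133 family held 4.68% ± 1.55. Both of these muscle families were highest on array 2.

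The miR-29 family, known to repress collagens and other matrix genes, held 4.75% ± 0.50. MiR-29a gave 66.4% of it, and miR-29b and miR-29c the remainder. The miR-15/16 family, whose targets include cell cycle regulators, was spread over 6 members that were all detected on all 4 arrays. They held 4.12% ± 0.199 together and miR-16 gave 36.2% of that. The families of miR-203 (4.06%), miR-27 (3.94% ± 0.120), miR-205 (3.49%), miR-26 (3.27% ± 0.154) and miR-24 (3.14%) completed the 12. MiR-29a and miR-29c differ at 1 of 22 bases, and miR-27a and miR-27b at 1 of 21. Binding to each other's probes was not measured for these either.

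**Figure D3:**
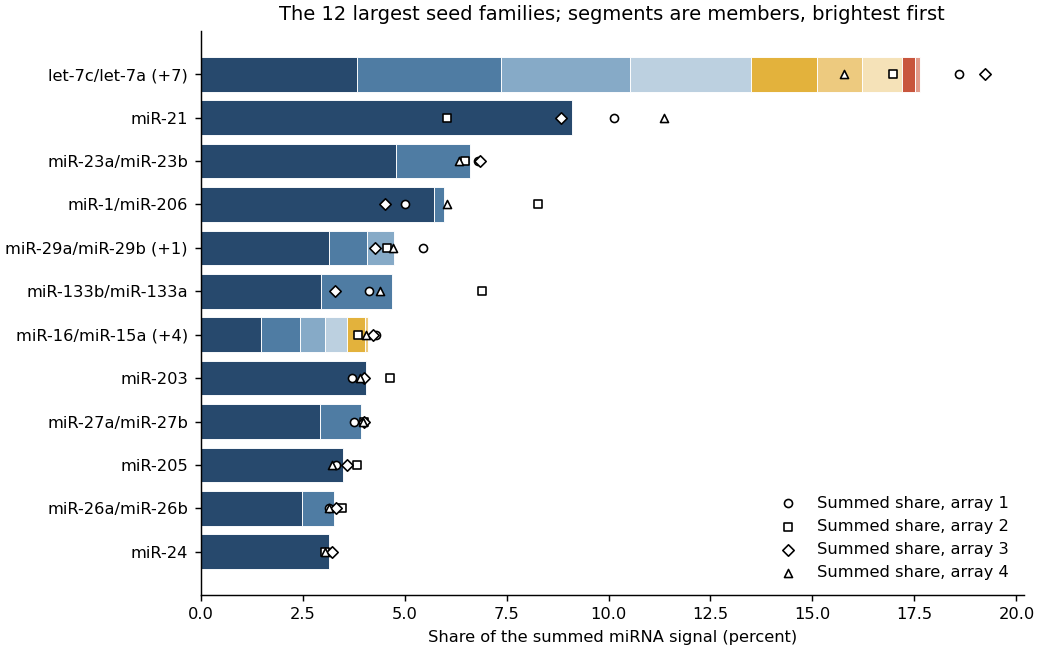
Summed share of the miRNA signal (horizontal axis, percent) of the 12 largest seed families (vertical axis), with the mean share of each member as a segment and the summed share on each of the 4 arrays as an open symbol. The let-7 bar is built from 9 segments of similar or decreasing width and sums to 17.6%, whereas the miR-21, miR-203, miR-205 and miR-24 bars are single miRNAs.

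MiRNA genes that lie close together are often transcribed as 1 precursor. Here miRNAs on the same strand with neighbours at most 10000 bases apart were taken as a cluster when they came from more than 1 hairpin. The array lists every miRNA at 1 place only, so a miRNA with several gene copies counted in a single cluster. Of 560 miRNAs with a listed place, 295 fell into 50 clusters, and these held 59.7% of the signal.

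The cluster with the largest share lay on chromosome 8 (86732465 to 86732759, plus strand) and held 7.78% ± 0.118. It comprised miR-23a and miR-27a, with the star strands miR-24-2* and miR-27a*. MiR-24 itself has a copy there as well but is listed with its other copy on chromosome 13 (63401841 to 63402580, plus strand). That cluster, of miR-24, miR-23b and miR-27b, held 6.02% ± 0.256. The related genes of both places thus gave 2 of the 5 largest clusters.

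Let-7 genes gave another pair. The cluster of let-7a, let-7f and let-7d on chromosome 13 (48631393 to 48633627, minus strand) held 7.70% ± 0.648, and that of let-7c and let-7b on chromosome 15 (85537049 to 85537830, plus strand) held 6.80% ± 0.811. Some of these miRNAs, such as let-7c and let-7f, have a second copy, so these sums could be divided differently. The cluster shares of let-7a and miR-23a differed by less than the SD of the former.

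The muscle miRNAs came from 2 clusters, miR-1 with miR-133a on chromosome 18 at 7.53% ± 2.26, and miR-133b with miR-206 on chromosome 1 (20669142 to 20672936, plus strand) at 3.19% ± 0.975. MiR-1 and miR-133a are also encoded elsewhere. The cluster of miR-29a on chromosome 6 (31012673 to 31013088, minus strand) held 3.16% ± 0.410 and that of miR-26a on chromosome 10 (126432605 to 126435542, plus strand) held 2.49% ± 0.109, in each case almost wholly from the miRNA named. Both sums rest on listing each miRNA at 1 place. The chromosome 6 cluster holds miR-29b*, but its guide miR-29b (0.927%) is listed on chromosome 1 and is left out of that sum.

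By contrast, in several of the longest clusters most miRNAs were undetected on these arrays. Across all mouse miRNAs, 199 of 567 (35.1%) were detected on all 4 arrays and 314 (55.4%) on none. In the imprinted Dlk1-Dio3 domain of chromosome 12, a stretch of 50 miRNAs (110947280 to 110981994) had 3 detected on all 4 arrays and 40 on none. MiR-494 supplied 88.3% of its mean share, 0.733% ± 0.482 of a cluster sum of 0.831%, and less on array 2, with 0.272% of 0.373%, and the other two were miR-487b and miR-134. A further stretch of 20 miRNAs of the same domain (110801929 to 110833597) had 2 detected on all 4 arrays, miR-127 and miR-770-3p, and 16 on none.

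Of the 14 strands of the miR-290 cluster on chromosome 7 (3218647 to 3220838), which is known from early embryos, 13 were detected on no array. The 8 strands of the miR-302 and miR-367 cluster on chromosome 3 (127248160 to 127248718), known from pluripotent cells, included 7 detected on none. A cluster of 21 strands on chromosome X (64029935 to 64067184), which holds miR-741, miR-743a and miR-871, had 20 detected on none. The miR-17 to miR-92a cluster on chromosome 14 (115442915 to 115443718), known to promote proliferation, was the exception among the clusters of 10 or more strands. It had 7 of 10 strands detected on all 4 arrays and held 0.980% ± 0.0824, led by miR-19b, miR-92a and miR-20a.

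Detection was called by the scanner software for each array. It flagged 227, 243, 213 and 216 miRNAs on arrays 1 to 4, so array 2 had the most and was also the brightest array. Between the 199 detected on all 4 arrays and the 314 detected on none, 54 were detected on 1 to 3 arrays. The 199 carried 99.5% ± 0.0540 of the signal and the 314 carried 0.155% ± 0.0289, although the latter were more than 50% of the list.

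The boundary between detected and undetected was not a single signal level. The 5 dimmest miRNAs detected on all 4 arrays were miR-29b*, miR-532-3p, miR-342-5p, miR-674 and miR-362-5p, with mean signals from 7.99 to 12.3 units. MiR-29b* read 9.36, 6.89, 6.74 and 8.98 units. Let-7b* was detected on none at 13.8, 9.89, 12.3 and 15.9 units, and miR-290-3p and miR-483*, which came next, averaged 11.8 and 11.2 units. Signals of about 8 to 13 units therefore occurred on both sides of the call.

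MiRNAs known from the cell types of skin were almost all present. Of 31 measured miRNAs in 7 lists for skin cell types, 30 were detected on all 4 arrays, against 35.1% of all mouse miRNAs. The lists were made of well-known miRNAs with earlier results of these data in view, so this count was open to the choice of members and is given as a description. MiR-144, an erythrocyte miRNA, was the exception, detected on 1 array with signals of 7.54, 16.1, -1.80 and 17.0 units.

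The keratinocyte list held 9.17% ± 0.772 of the signal and all 7 of its miRNAs were detected on all 4 arrays. MiR-203 and miR-205 gave most of it. MiR-200b, of the miR-200 family that maintains the epithelial state, came next with 735, 1121, 814 and 877 units. The miR-200b share, 0.407% ± 0.0580, was far below that of miR-203.

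The skeletal muscle list held 9.14%, 15.2%, 7.81% and 10.4% of the signal on arrays 1 to 4, a mean of 10.6% ± 3.20. Its highest share was on array 2 and its lowest on array 3. MiR-133b read 5721, 11636, 3591 and 6007 units, and miR-133a read 3391, 6764, 2054 and 3701 units. On array 2 they were 2.28 and 2.22 times the mean of the other 3 arrays. MiR-206 behaved differently, with 618, 567, 358 and 571 units, and was not raised on array 2.

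Within the muscle list the proportions of the 3 bright members varied little. MiR-133a and miR-133b belong to 1 family, and binding of either to the other's probe was not measured, so they may not be separate readings. MiR-1 made up 51.7% to 55.3% of the summed muscle signal, miR-133b 26.1% to 28.8% and miR-133a 15.3% to 16.8%. The part of miR-206 ran from 1.40% on array 2 to 3.07% on array 1. In a bulk sample more cells of a type and more RNA per cell cannot be told apart, and how much muscle each piece of skin contained was not measured.

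With the 4 muscle miRNAs left out of the total, the share of miR-21 was 11.1%, 7.13%, 9.59% and 12.7%, still lowest on array 2. MiR-203 then held 4.08%, 5.47%, 4.34% and 4.36%, and remained highest there. Without array 2 the mean share of miR-1 was 4.94% in place of 5.72%, with a mean rank of 3, and that of miR-21 was 10.1%.

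The fibroblast and smooth muscle list held 2.04% ± 0.194, and its 5 measured members were all detected on all 4 arrays. MiR-199b was the brightest with 3566, 3242, 2135 and 3010 units, followed by miR-199a-5p (0.298%) and miR-143 (0.217%). MiR-143, a miRNA of smooth muscle and fibroblasts, was highest on array 2 at 796 units against 309 to 485 on the others.

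Among leukocyte miRNAs, all 7 were detected on all 4 arrays and together they held 2.45% ± 0.356. MiR-223, the main miRNA of neutrophils and other myeloid cells, was very even at 1765, 1971, 1397 and 1789 units (0.791% ± 0.0353). MiR-342-3p was highest on array 1 and lowest on array 2, at 1704 and 853 units. MiR-142-3p, found across blood cells, ran from 677 units on array 3 to 1851 on array 4. The leukocyte list as a whole was lowest on array 2, at 2.01%.

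Endothelial miR-126-3p read 1641, 1982, 1179 and 1661 units, and miR-126-5p, from the other strand of its hairpin, 58.0, 118.0, 33.6 and 63.6 units. Erythrocyte miR-451 read 664, 1188, 716 and 1038 units, a share of 0.409% ± 0.0747, and miR-486 was at 0.0281%. The miRNAs of hair follicle and sensory epithelium, miR-96, miR-183 and miR-182, had shares of 0.0924%, 0.0288% and 0.0243%, and their sum stayed between 0.128% and 0.161%.

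The 6 lists for tissues other than skin held 23 miRNAs. Of these, 2 were detected on all 4 arrays and 20 on none (87.0%, against 55.4% of all mouse miRNAs), and their summed share was 0.0627% ± 0.00547. These lists too were made with earlier results of these data in view. The counts were open to the choice of members and are given as a description. The detected miRNAs were miR-128, named for neurons, with 78.2, 108.2, 53.0 and 66.7 units, and miR-7a, named for islet and pituitary, with 59.7, 53.3, 30.8 and 56.7 units.

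Liver miR-122, neuronal miR-124, miR-9 and miR-9*, and cardiac miR-208a and miR-499 read under 0 units on all 4 arrays. Islet miR-375 was detected on none, with signals of -2.72, 3.44, 7.41 and 4.16 units. Among the embryonic miRNAs, miR-290-5p was detected on 1 array, at 4.01, 11.8, 2.79 and 8.91 units across the 4. MiR-291a-3p, miR-292-3p, miR-294, miR-295, miR-302a, miR-302b, miR-302d and miR-367 were detected on none, and neither were the germ line miRNAs miR-741, miR-743a, miR-871, miR-880 and miR-883a-3p. MiR-1 was among the brightest miRNAs on these same arrays, and its cell source was not tested.

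**Figure D4:**
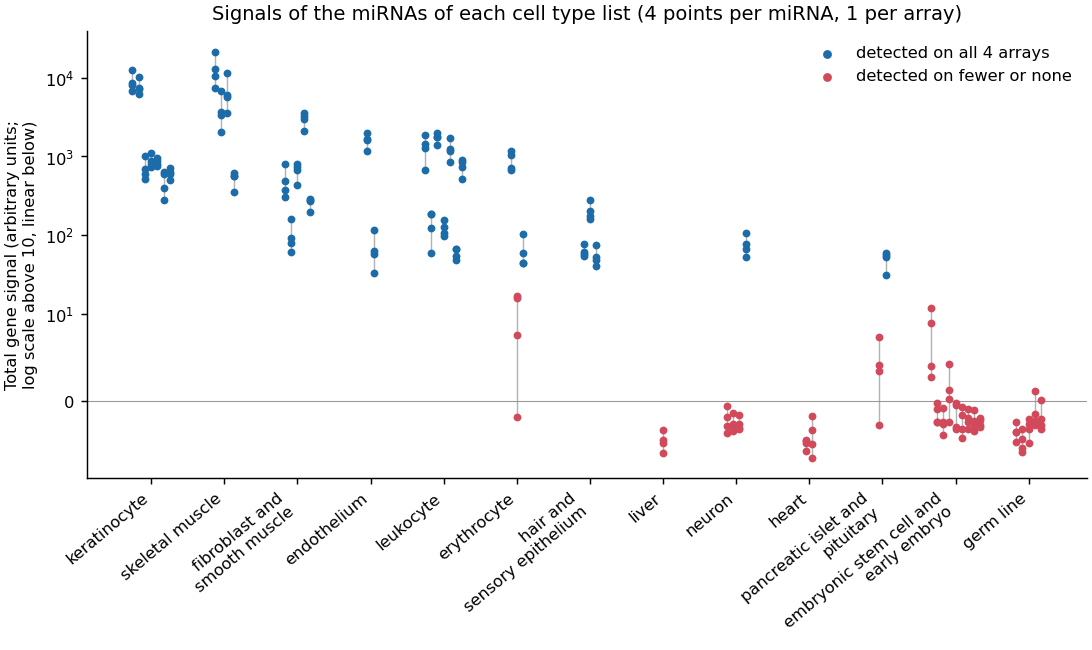
Total gene signal (vertical axis, arbitrary units, log scale above 10 and linear below) of each miRNA in the 13 cell type lists (horizontal axis), with 4 points per miRNA, 1 for each array, blue where the miRNA was detected on all 4 arrays and red otherwise. The 30 blue columns of the skin lists stand well above 0, whereas in the 6 lists for other tissues only miR-128 and miR-7a are blue.

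Passenger strands were much less abundant than guides. The array held 114 star strands, of which 16 (14.0%) were detected on all 4 arrays, compared with 183 of the 453 other miRNAs (40.4%). All star strands together held 1.29% ± 0.0903 of the signal. In 105 pairs with both strands on the array, paired by name, the guide was detected on all 4 arrays in 66 and the star in 16. Both strands were detected on all 4 arrays in 15 pairs, and there the median star signal was 8.03% of the guide's, a log2 ratio of -3.64. Each strand has its own probes, so such a ratio compares signals, not molecules.

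MiR-21 showed a wide gap in signal between its strands. Against a mean of 19663 units for the guide, miR-21*, the strand that the study follows as miR-21-3p, read 9.15, 7.37, 3.48 and 13.3 units and was detected on 2 of 4 arrays.

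The star strands with the largest shares were miR-199b* (0.548% ± 0.0813), miR-140* (0.108% ± 0.0101), miR-133a* (0.0730% ± 0.0193), miR-24-2* (0.0664% ± 0.00499), miR-203* (0.0584% ± 0.00594) and miR-24-1* (0.0460% ± 0.0129). MiR-199b* alone supplied more than the others together, and stood at 40.3% ± 4.46 of the signal of miR-199b. That ratio pairs strands by name only. The array lists miR-199b on chromosome 1 with miR-199a-5p and miR-214, in a cluster that does not hold miR-199b*, so the 2 strands may come from different hairpins. MiR-203* was at 1.44% ± 0.0946 of miR-203.

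In 2 of the 15 pairs the star was the brighter strand on all 4 arrays. MiR-140* read 243, 251, 185 and 261 units, or 152% ± 5.58 of miR-140. MiR-674* exceeded miR-674 by 1.61 ± 0.37 on the log2 scale, although miR-674 was among the dimmest detected miRNAs at a mean of 10.7 units. MiR-17 and miR-17* were equal within their spread, with a log2 ratio of 0.04 ± 0.12. MiR-135a* was detected on all 4 arrays at 12.4 to 18.7 units while its guide, miR-135a, was detected on none.

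Sequence features of detected and undetected miRNAs were set side by side. A RefSeq sequence was matched for 164 of the 199 miRNAs detected on all 4 arrays and for 254 of the 314 detected on none. The mature strand began with U in 83 of the 164 (50.6%) and in 92 of the 254 (36.2%). Among the 50 brightest, 73.8% of the 42 with a sequence began with U. First-base A went the other way, at 23.2% of those detected and 34.3% of those undetected. The median GC content of the whole strand was similar, 46.7% and 45.5%, and the median length was 22 bases in both. Within the seed the median GC content differed, at 57.1% of those detected and 42.9% of those undetected. Probe design differed as well, since 82.4% of the miRNAs detected on all 4 arrays but 31.5% of those detected on none were measured with 2 distinct probes, and its part in detection was not tested.

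The 4 arrays agreed closely in rank, while the scaled levels of some miRNAs lay apart. Over the 199 detected miRNAs, which are not independent of each other, Spearman's rank correlation was 0.967 to 0.989 for the 6 pairs of arrays. Pearson's r of log2 signals was 0.969 to 0.989. By the number of miRNAs more than 2-fold apart after scaling, arrays 2 and 3 were the most distant pair, with 23 of 199, and arrays 2 and 4 the closest, with 3. By the median absolute log2 difference, arrays 1 and 3 were the most distant, at 0.36 against 0.32 for arrays 2 and 3. All 4 arrays lay on 1 slide, arrays 1 and 2 in row 1 and arrays 3 and 4 in row 2.

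To compare levels, each array's signals were divided by its own 75th percentile over the 199 detected miRNAs, and the SD over the 4 arrays was taken on the log2 scale. The median SD was 0.25, with quartiles of 0.15 and 0.39. The 50 brightest miRNAs had a median SD of 0.18 and the 50 dimmest of 0.35. In linear terms the median coefficient of variation was 17.8%, against a median error of 8.33% that the software assigns to a single value. In all, 30 miRNAs had an SD over 0.5 and 2 had an SD over 1.

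The steadiest miRNAs were miR-27a (SD 0.05), miR-139-5p (0.06), miR-125a-5p (0.08), miR-150 (0.08) and miR-361 (0.08). Without scaling their SDs were 0.18 to 0.28, and without array 1 that of miR-125a-5p was 0.05, without array 2 those of miR-150 and miR-361 were 0.05, and without array 3 that of miR-139-5p was 0.04. MiR-27a read 6024, 7927, 5207 and 6502 units before scaling, and its share stayed between 2.74% and 3.03%. MiR-150, a lymphocyte miRNA, read 107, 154, 99.1 and 126.5 units.

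The most variable was miR-196a, encoded within the Hox gene clusters, with an SD of 1.59. It read 135, 15.1, 92.3 and 87.7 units, so array 2 was at 0.144 times the mean of the other 3. Without array 2 its SD was 0.39. MiR-721 was second (SD 1.01) with 151, 955, 461 and 581 units, and its SD without array 1 was 0.32.

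MiR-494 (SD 0.92) read 1081, 725, 2376 and 1734 units and was spread over all 4 arrays. MiR-762 (SD 0.87) was at 37.8 units on array 3 and 12.5 to 17.1 elsewhere, and without array 3 its SD was 0.25. MiR-19a (SD 0.75), of the miR-17 to miR-92a cluster, was low on array 3 at 23 units against 63.1 to 93.7, and its SD without that array was 0.14.

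Bright miRNAs were not always steady. MiR-21 had an SD of 0.40 and miR-1 of 0.44, both above the median, and these fell to 0.25 and 0.26 without array 2. MiR-133b and miR-133a were at 0.50 and 0.51, and at 0.29 and 0.33 without array 2. Array 3 was the farthest from the mean for 75 of the 199 miRNAs and array 4 for 9. The 24 detected miRNAs with at least 60% GC lay 0.22 above their own mean on array 3 and -0.20 from it on array 1 at the median (log2), while the 98 with under 50% GC lay at -0.13 and 0.14. The part of base composition in the spread was not tested.

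**Figure D5:**
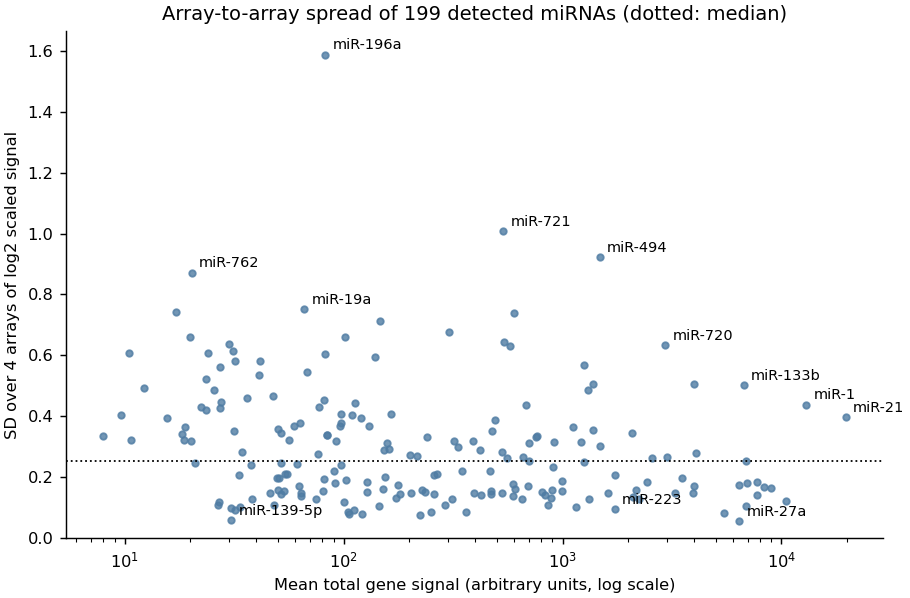
SD over the 4 arrays of the log2 scaled signal (vertical axis) against the mean total gene signal (horizontal axis, arbitrary units, log scale) for the 199 miRNAs detected on all 4 arrays, 1 point each. The dotted line is the median SD of 0.25, with miR-196a far above it at 1.59 and miR-27a lowest at 0.05, and miR-21 and miR-1 above it at the bright end.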

How the data were processed

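The labels place 4 samples in the WT no UV group. Total RNA (100 ng) was labelled with Cy3 and hybridised to single-colour Agilent mouse miRNA arrays. The values used are linear intensities from the scanner files that the authors deposited. Per the file headers, Agilent Feature Extraction 9.5.3.1 subtracted a spatially fitted background and added up all spots for 1 miRNA, which gave its total signal, an error and a detection flag; arrays were not normalized against each other, and positions are on mm9. The design is an earlier release than the methods name. The deposited series table holds log2 values normalized by the authors and served as an alternative. No spot was saturated. On each of 3 arrays, 10 spots of 1 miRNA came from a second, dimmer scan.

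Mouse miRNAs that were not controls were used, and sequences were matched for 462 of 567 by name, listed position or named arm. Shares, families, clusters and spreads were computed in Python 3.11.15 with pandas 2.3.3 after tests on simulated data; normexp used limma 3.58.1. Intensities give no counts, so no counting interval applies and the number of arrays limits the precision. No groups were contrasted; the only test was a Dixon outlier limit over the 4 arrays. Members, lists and the rule for named miRNAs (the 20 largest shares, the given markers, the 12 largest families and 8 largest clusters, list members, extremes of spread and detection, leading star strands) were chosen with earlier results of these data known. The larger clusters that were mostly undetected, miR-21* and array-specific details were added after their values were seen.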

Additional observations from a re-analysis of the deposited data

Results flagged for a closer look

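Among 107 values compared over the 4 arrays, 5 (4.67%) had 1 array set apart from the rest by more than a 95% limit for 4 samples, where chance alone sets about 1 in 20 apart. The measure is the gap between the outermost array and its neighbour as a fraction of the whole range. MiR-29a was high on array 1, with a gap of 0.869 and scaled log2 signals of 3.45, 2.98, 2.91 and 2.95. MiR-96 was high on array 2, with a gap of 0.832, at -1.80 against -2.11 to -2.06. MiR-19a was low on array 3, with a gap of 0.834, at -4.91 against -3.59 to -3.32. The share of let-7f was low on array 4, with a gap of 0.957, at 2.78% against 3.29% to 3.31%. The summed share of the miR-27 family was low on array 1, with a gap of 0.942, at 3.76% against 3.99% to 4.01%, a small difference in size. Over all 199 detected miRNAs, 9 (4.52%) passed the same limit, and array 3 was the one apart in 6 of them.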

How the results depend on the processing

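No paired analysis was possible because a single group was described. Of 907 values recomputed under an alternative for 85 results, 815 stayed within the spread (or within 1.5 times for counts and SDs) and 92 moved. The spreads of miR-133a and miR-133b were added to these after seeing the data. Leaving out a single array cannot move a mean share or rank by its SD over the 4 arrays. Those values stayed within the spread by construction. Most alternatives for the signal keep the order within an array by construction. With processed spot signals or normexp, which start from other spot values, the 20 miRNAs with the largest mean share were the same 20, and miR-21 was brightest on 3 of 4 arrays.

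Normexp correction moved every share, because its offset of 50 is added to each of the 20 spots of every miRNA, undetected ones included. MiR-21 then held 5.51%, the 10 largest 24.7%, the let-7 family 9.96%, the 12 largest families 40.3% and the miR-23a cluster 4.48%, and 111 miRNAs made up 50% of the signal. Quantile normalization put the miR-23a cluster at 8.08%. The series table put it at 8.14% and the 10 largest at 45.8%; the cause was not tested. The miRNAs detected on all 4 arrays numbered 157 when at least 50% of spots had to be well above background and 201 when the signal had to exceed 3 times its error, and those detected on none 378 and 314. The median SD ran from 0.21 to 0.33 under other scalings.

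Leaving out 1 array at a time gave 8.34% to 10.1% for miR-21, 43.7% to 44.2% for the 10 largest, 17.1% to 18.3% for let-7, 200 to 209 miRNAs detected on every array and a median SD of 0.19 to 0.29. Clusters with neighbours within 3000 or 50000 bases and families by bases 2 to 7 left the miR-23a cluster and let-7 sums within their spread. Signals under about 13 units lie where detected and undetected miRNAs overlap.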

Other observations

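MiR-720, miR-709 and miR-199b followed the 20 brightest miRNAs, with mean shares of 1.29% ± 0.539, 1.20% ± 0.316 and 1.36% ± 0.184. None of these was matched to a RefSeq mature sequence, and which RNA gives the miR-720 and miR-709 signals was not tested. MiR-720 read 1758, 4874, 1467 and 3700 units on arrays 1 to 4, high on arrays 2 and 4 and low on arrays 1 and 3, with an SD of 0.63 on the log2 scale after scaling. MiR-709 held 1.67% on array 3 against 1.0% to 1.09% on the other 3.

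By chromosome, as listed on the array, chromosome 11, with miR-21, held 14.8% ± 2.52 from 38 listed miRNAs, of which 25 were detected on all 4 arrays. Chromosome 12 held 82 listed miRNAs, of which 13 were detected on all 4 arrays, and 5.69% ± 0.502 of the signal, most of it from miR-203. Chromosome X held 81, of which 18 were detected on all 4 arrays, and 2.24% ± 0.139. The detected parts of chromosomes 11, 12 and X were 65.8%, 15.9% and 22.2%, against 35.1% of all mouse miRNAs.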
